A study of Mus musculus with 2 samples.

Results

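The 44 cell cycle genes described here comprise 18 genes of S phase and 26 genes of G2 and M phase (G2-M), taken by symbol from the 52550 gene identifiers of the count tables. All 44 were found and all passed the filter on low counts. They were measured by Drop-seq, which captures single cells in droplets with barcoded beads and counts mRNA molecules by unique molecular identifiers (UMIs). The tissue was dissected at E10.0 from embryos of the CD1 mouse strain, all wild type, and held the posterior second heart field (SHF), whose mesodermal progenitors add cells to the growing heart, together with the heart tube. Roughly 80 embryos went into each library, and 2 libraries, made on separate days, are biological replicates of a single group. The comparisons are therefore between cell types within the libraries.

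In S phase the genome is copied. The MCM2-7 helicase, loaded onto origins by Cdc6, unwinds DNA, the sliding clamp Pcna holds the polymerases, and Rrm1, Rrm2 and Tyms supply deoxynucleotides. E2F factors drive many of these genes as cells leave G1. In G2 and M, Cdk1 with the B-type cyclins starts mitosis, motor proteins and kinetochore proteins move the chromosomes, and the anaphase-promoting complex with Cdc20 and Ube2c ends it. Many G2-M promoters carry CHR elements, bound by MuvB complexes that repress them in quiescent cells and help to raise them in G2, and CCAAT boxes, bound by the separate activator NF-Y. Cardiomyocytes of the embryonic heart divide while they contract, and neurons leave the cycle.

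The promoters of the members carry these elements to different degrees, and 5 are shown because they illustrate the division. RefSeq promoters on GRCm38.p6, each 300 bases long (250 before and 50 after the start), were matched for 37 members, 15 of S and 22 of G2-M, and compared with all 27025 genes of the table. Each sequence below is the stretch of 150 bases before the start, on the gene's own strand. Capitals mark 3 kinds of match on either strand. The CHR element was searched as TTTGAA and the CCAAT box by its own letters. E2F sites were searched as TTTCCCGC, TTTCGCGC, TTTGCCGC or TTTGGCGC. Among the members E2F matches overlap each other in Mcm5 and Mcm6, and CCAAT matches do in Uhrf1 and Ube2c. In Mcm7 an E2F match and a CCAAT match share a letter. No CHR match shares letters with another motif.
Top2a, chr11:99024190-99024339, minus strand: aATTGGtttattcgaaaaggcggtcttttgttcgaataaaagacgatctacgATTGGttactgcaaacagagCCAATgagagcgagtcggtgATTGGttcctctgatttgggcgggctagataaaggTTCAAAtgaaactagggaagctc
Cdc20, chr4:118437344-118437493, minus strand: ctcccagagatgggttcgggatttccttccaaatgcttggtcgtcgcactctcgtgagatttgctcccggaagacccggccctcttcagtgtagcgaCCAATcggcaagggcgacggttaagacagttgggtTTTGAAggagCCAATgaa
Cdk1, chr10:69352913-69353062, minus strand: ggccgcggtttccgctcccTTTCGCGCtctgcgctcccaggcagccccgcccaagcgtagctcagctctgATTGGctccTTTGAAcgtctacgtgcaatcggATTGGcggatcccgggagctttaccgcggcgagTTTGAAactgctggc
Mcm6, chr1:128359706-128359855, minus strand: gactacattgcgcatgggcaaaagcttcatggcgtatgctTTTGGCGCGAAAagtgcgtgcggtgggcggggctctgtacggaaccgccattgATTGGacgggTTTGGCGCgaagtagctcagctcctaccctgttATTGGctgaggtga
Hells, chr19:38930840-38930989, plus strand: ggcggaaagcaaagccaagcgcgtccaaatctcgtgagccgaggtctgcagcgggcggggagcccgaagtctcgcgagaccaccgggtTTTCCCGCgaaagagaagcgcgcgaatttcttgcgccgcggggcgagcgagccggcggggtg

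A CHR match was found in 17 of 22 G2-M promoters (77.3%), in 1 of 15 S promoters (6.67%, the helicase subunit gene Mcm2) and in 18.1% of all promoters. CCAAT was found in 19 G2-M promoters (86.4%), 10 S promoters (66.7%) and 37.9% of all. An E2F match was found in 7 S promoters (46.7%), in 1 G2-M promoter (4.55%, Cdk1) and in 2.32% of all. Promoters with both a CHR and a CCAAT match made up 72.7% of the G2-M set, 6.67% of the S set and 7.12% of all. These matches describe letters in a fixed window, without a measurement of binding.

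Once cells had been filtered and likely doublets taken out, 3882 cells of replicate 1 and 4717 of replicate 2 remained, with 11240488 and 12776544 UMIs and medians of 1380.5 and 1500 UMIs per cell. The libraries shared 82 barcodes, none of them among the cells kept (0). Cells were clustered without the members or any other listed cell cycle gene. Of 19 clusters, 12 took the name of a cell type from marker genes (hence "-like") and served as classes. Unnamed clusters held 2322 (at a median of 762 UMIs), 548, 345, 198, 191, 75 and 11 cells and entered no class comparison. Ranks given below therefore cover the named classes only. The unnamed cluster of 345 cells had 0.91% and 0.687% G2-M UMIs, against 0.994% and 0.687% in neural tube-like cells, the highest class. That of 11 cells had 0.193% and 0.125%, below every named class. The labelled tissues were present by their markers: cardiomyocyte-like cells raised 11 of 11 cardiomyocyte markers and SHF progenitor-like cells 6 of 8, among them Isl1, Osr1 and Tbx5. Neighbouring tissues were also present, from foregut endoderm-like to neural tube-like cells.

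S phase members were highest in neural tube-like cells and lowest in cardiomyocyte-like cells in both libraries. Summed over the 18 members, they made up 0.502% and 0.521% of the UMIs of neural tube-like cells (mean 0.512 ± 0.0133, SD, n = 2), and 0.209% and 0.17% of those of cardiomyocyte-like cells (0.189 ± 0.0275). The ratio between these classes was 2.4 and 3.07. The order of the classes in between was nearly the same in both libraries. Neural crest or glia-like cells (0.378% and 0.449%), SHF progenitor-like cells (0.416% and 0.405%), limb or pharyngeal mesenchyme-like cells (0.409% and 0.391%) and paraxial mesoderm-like cells (0.405% and 0.382%) stood above the rest and overlapped each other. Foregut endoderm-like (0.347% and 0.37%), epicardial-like (0.33% and 0.356%), endocardial or endothelial-like (0.325% and 0.343%) and hepatoblast-like cells (0.327% and 0.327%) followed. Neuron-like cells (0.227% and 0.246%) and erythroid-like cells (0.222% and 0.186%) lay between these and the cardiomyocyte-like cells. The 3 lowest classes had no value in common with the other 9.

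G2-M members gave a similar order with a wider gap between the libraries. Neural tube-like cells were again at the top, with 0.994% and 0.687% of UMIs (0.84 ± 0.217, n = 2), followed by SHF progenitor-like cells (0.807% and 0.67%) and foregut endoderm-like cells (0.82% and 0.651%). At the lower end stood hepatoblast-like (0.637% and 0.404%), cardiomyocyte-like (0.557% and 0.432%), erythroid-like (0.52% and 0.444%) and neuron-like cells (0.365% and 0.483%). These 4 overlapped each other, so their order is not resolved. For neuron-like cells it also depends on the weight of large cells, since the mean of the per-cell shares was 0.618% and 0.453%, against 0.532% and 0.389% in cardiomyocyte-like cells. The remaining 5 classes had means from 0.568% (epicardial-like) to 0.673% (limb or pharyngeal mesenchyme-like). The ratio of S to G2-M UMIs was lowest in cardiomyocyte-like cells, at 0.375 and 0.394, and it was 0.427 and 0.419 in erythroid-like cells. In the other classes it lay between 0.423 and 0.621 in replicate 1 and between 0.51 and 0.81 in replicate 2.

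The place of the erythroid-like cells depends on what the members are divided by. Haemoglobin took 38.8% and 44% of their UMIs. As a share of UMIs outside haemoglobin and the sarcomere markers, their G2-M members reached 0.851% and 0.792%, ranks 2 and 1 of 12, and their S members 0.364% and 0.332%, ranks 6 and 9. The same division left cardiomyocyte-like cells at rank 12 for S (0.219% and 0.179%) and at rank 11 for G2-M (0.584% and 0.455%) in both libraries. This denominator was chosen after the data were seen.

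**Figure D1:**
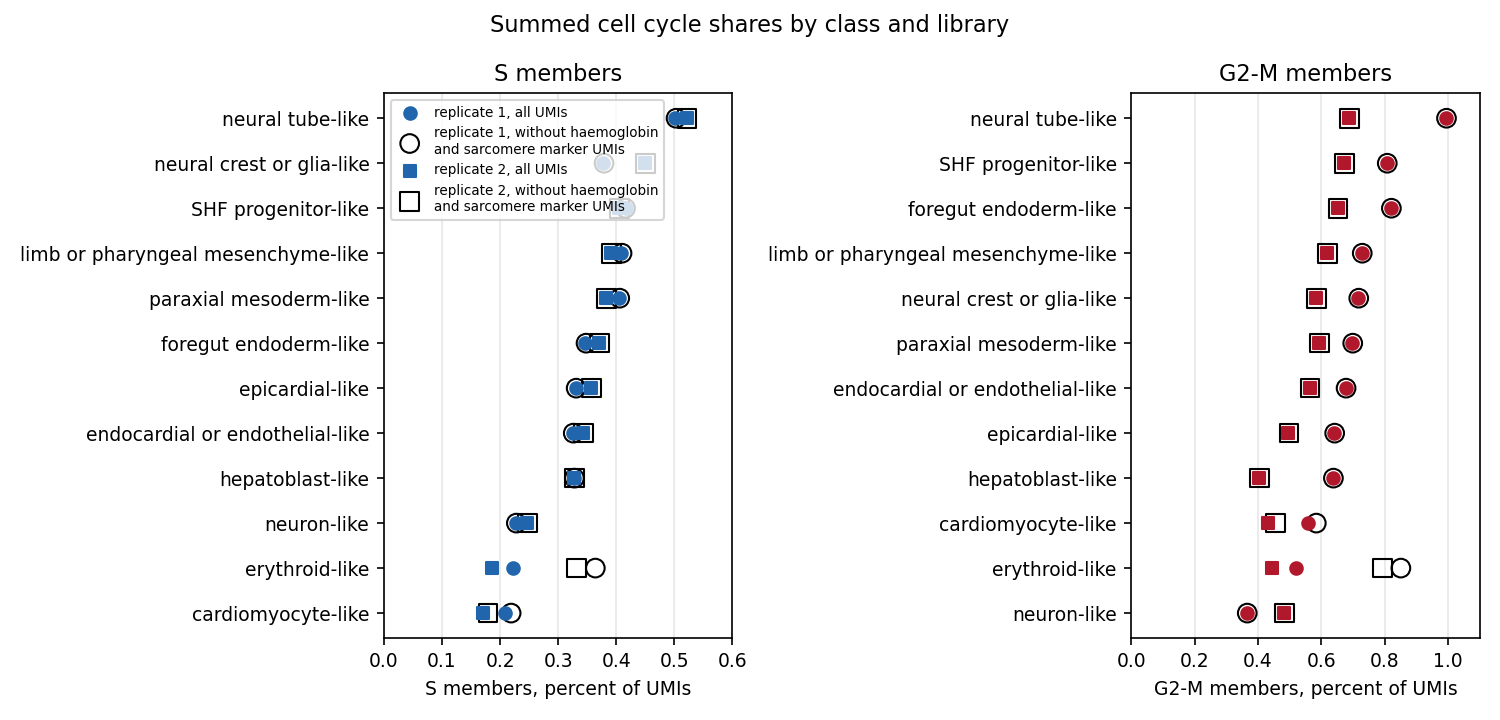
Share of UMIs (percent, x axis) of the 18 S members (left) and 26 G2-M members (right) in each of the 12 classes, ordered by mean. Filled circles are replicate 1 and filled squares replicate 2 with all UMIs as the denominator, and open symbols leave out haemoglobin and sarcomere marker UMIs. Cardiomyocyte-like cells are lowest for S in both libraries, and only the erythroid-like values move far between filled and open symbols.

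The classes were compared gene by gene on UMI counts summed per class and library, with edgeR's quasi-likelihood test adjusted over the 5710 genes tested. Log2 fold changes of a class are against the mean of the log levels of the other 11 classes, and CPM (a gene's UMIs per 1000000 UMIs of a class in a library) are given for the libraries in order. The p-values rest on 2 libraries and describe differences between classes, since all classes share the same embryos. In cardiomyocyte-like cells 17 of 18 S members were called lower and none (0) higher, with a median log2 fold change of -0.78, against 9.39% of all genes tested called lower, 17.5% called higher and a median over all genes of 0.05. Of 26 G2-M members, 14 were called lower and 1 higher, with a median of -0.37. Without the library as a block, 11 S members and 1 G2-M member were called lower, and DESeq2 called 16 and 8.

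Among the S members Rrm2, the small subunit of ribonucleotide reductase (chr12:24708241-24714146, GRCm38), fell most. It had 156 and 142 CPM in cardiomyocyte-like cells. In SHF progenitor-like cells it had 494 and 519 CPM, and in neural tube-like cells 678 and 643. Cardiomyocyte-like cells were the lowest of these classes in both libraries without overlap, with a log2 fold change of -1.36 (SE 0.12, edgeR adjusted p = 2.08e-18). Tyms, thymidylate synthase, had 89.5 and 128 CPM against 253 and 310 in SHF progenitor-like cells (log2 fold change against the mean of the other classes -0.95). Its partner in the pathway Rrm1, the large reductase subunit, changed less, by -0.64 (SE 0.12), with 179 and 135 CPM. Uhrf1, which brings the maintenance DNA methyltransferase to new DNA, had 76.5 and 48.6 CPM against 158 and 190 in SHF progenitor-like cells and fell by 1.21 on the log2 scale. The chromatin remodeler Hells had 142 and 79.2 CPM against 372 and 260 and fell by 1.0. Cdca7, which recruits Hells, had 135 and 62.5 CPM against 333 and 217 and fell by 1.11.

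The replication machinery itself fell unevenly. Pcna, the clamp (chr2:132249162-132253314), had 129 and 113 CPM in cardiomyocyte-like cells and 276 and 328 in SHF progenitor-like cells, a log2 fold change of -1.0 against the mean of the other classes (SE 0.14, edgeR adjusted p = 1.17e-09). Among the 6 helicase subunits Mcm5 changed by -0.99 (SE 0.16) and Mcm2 by -0.43 (SE 0.14), with Mcm6, Mcm7, Mcm3 and Mcm4 in between at -0.77, -0.76, -0.55 and -0.48. The difference between the subunits was not tested. Gins2, a subunit of the active helicase, changed by -0.91 and the loader Cdc6 by -0.78. Slbp, which binds histone mRNAs, changed by -0.59 and the clamp loader subunit Rfc2 by -0.36 (adjusted p = 0.05 after rounding). The exception was Ung, a uracil-DNA glycosylase, with 50.4 and 50 CPM against 72.1 and 64 in SHF progenitor-like cells, -0.27 (SE 0.21, edgeR adjusted p = 0.37).

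Among the G2-M members the calls covered cyclins, kinases, motors and checkpoint genes. Cdc20, the activator of the anaphase-promoting complex (chr4:118432901-118437352), had 122 and 185 CPM against 260 and 344 in SHF progenitor-like cells. Its log2 fold change against the mean of the other classes was -0.72 (SE 0.12, edgeR adjusted p = 4.09e-07). The other calls were the motors Kif20b (-0.66) and Cenpe (-0.62), the S and G2 cyclin Ccna2 (-0.62), the checkpoint kinases Ttk (-0.63) and Bub1 (-0.51), the mitotic kinases Aurkb (-0.51), Plk1 (-0.46) and Aurka (-0.44), and the Aurkb partner Birc5 (-0.40). Mki67, which coats mitotic chromosomes (-0.41), Hmmr (-0.38), the spindle factor Tpx2 (-0.31) and topoisomerase Top2a (-0.24) complete the 14. Top2a had 711 and 417 CPM in cardiomyocyte-like cells and 1080 and 714 in SHF progenitor-like cells.

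The 11 members not called included the core of the mitotic switch. Cdk1 had 182 and 193 CPM (log2 fold change -0.24, edgeR adjusted p = 0.15), Ccnb1 155 and 157 CPM (-0.21, adjusted p = 0.238) and the ubiquitin-conjugating enzyme Ube2c 472 and 500 CPM (0.12, adjusted p = 0.391). Ube2c overlaps the muscle gene Tnnc2 on the other strand, as Cdc20 does Elovl1, Ccna2 Exosc9 and Mcm7 Cops6 and Ap4m1, and no source states whether counting used the strand, so these counts are uncertain. The centromere histone Cenpa changed by 0.09 and the cytokinesis regulator Ect2 by -0.01. Kif23, a kinesin of the central spindle needed for cytokinesis (chr9:61915905-61946774), was the single member called higher, at 0.34 (SE 0.12, edgeR adjusted p = 0.0259). It had 247 and 160 CPM in cardiomyocyte-like cells and 276 and 164 in SHF progenitor-like cells, where the log2 fold change between the classes was 0.02, and it was highest in foregut endoderm-like cells at 367 and 209. Among 10 alternatives with a test, 1 called Kif23 higher, and the adjusted p ranged from 0.0392 to 0.588.

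Against SHF progenitor-like cells alone the medians lay further from 0. In cardiomyocyte-like cells 16 of 18 S members were called lower (median log2 fold change -0.91) and 18 of 26 G2-M members (median -0.49), with none (0) higher in either list, against 12.9% of all genes called lower, 14.7% higher and a median of -0.02. Rrm2 changed most, by -1.64 (SE 0.14, edgeR adjusted p = 1.09e-19), and Hells, Cdca7 and Uhrf1 followed at -1.40, -1.37 and -1.37. Among the G2-M members Kif20b (-0.97) and Bub1 (-0.96) changed most. Cdk1 (-0.43), Ccnb1 (-0.49) and Bub1b (-0.81), which were not called against the mean of all classes, were called here, while Mki67 (-0.25) and Plk1 (-0.37) were not. Without the library as a block, 11 S members and 1 G2-M member were called, and after thinning all cells to 1000 UMIs 11 and 8.

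**Figure D2:**
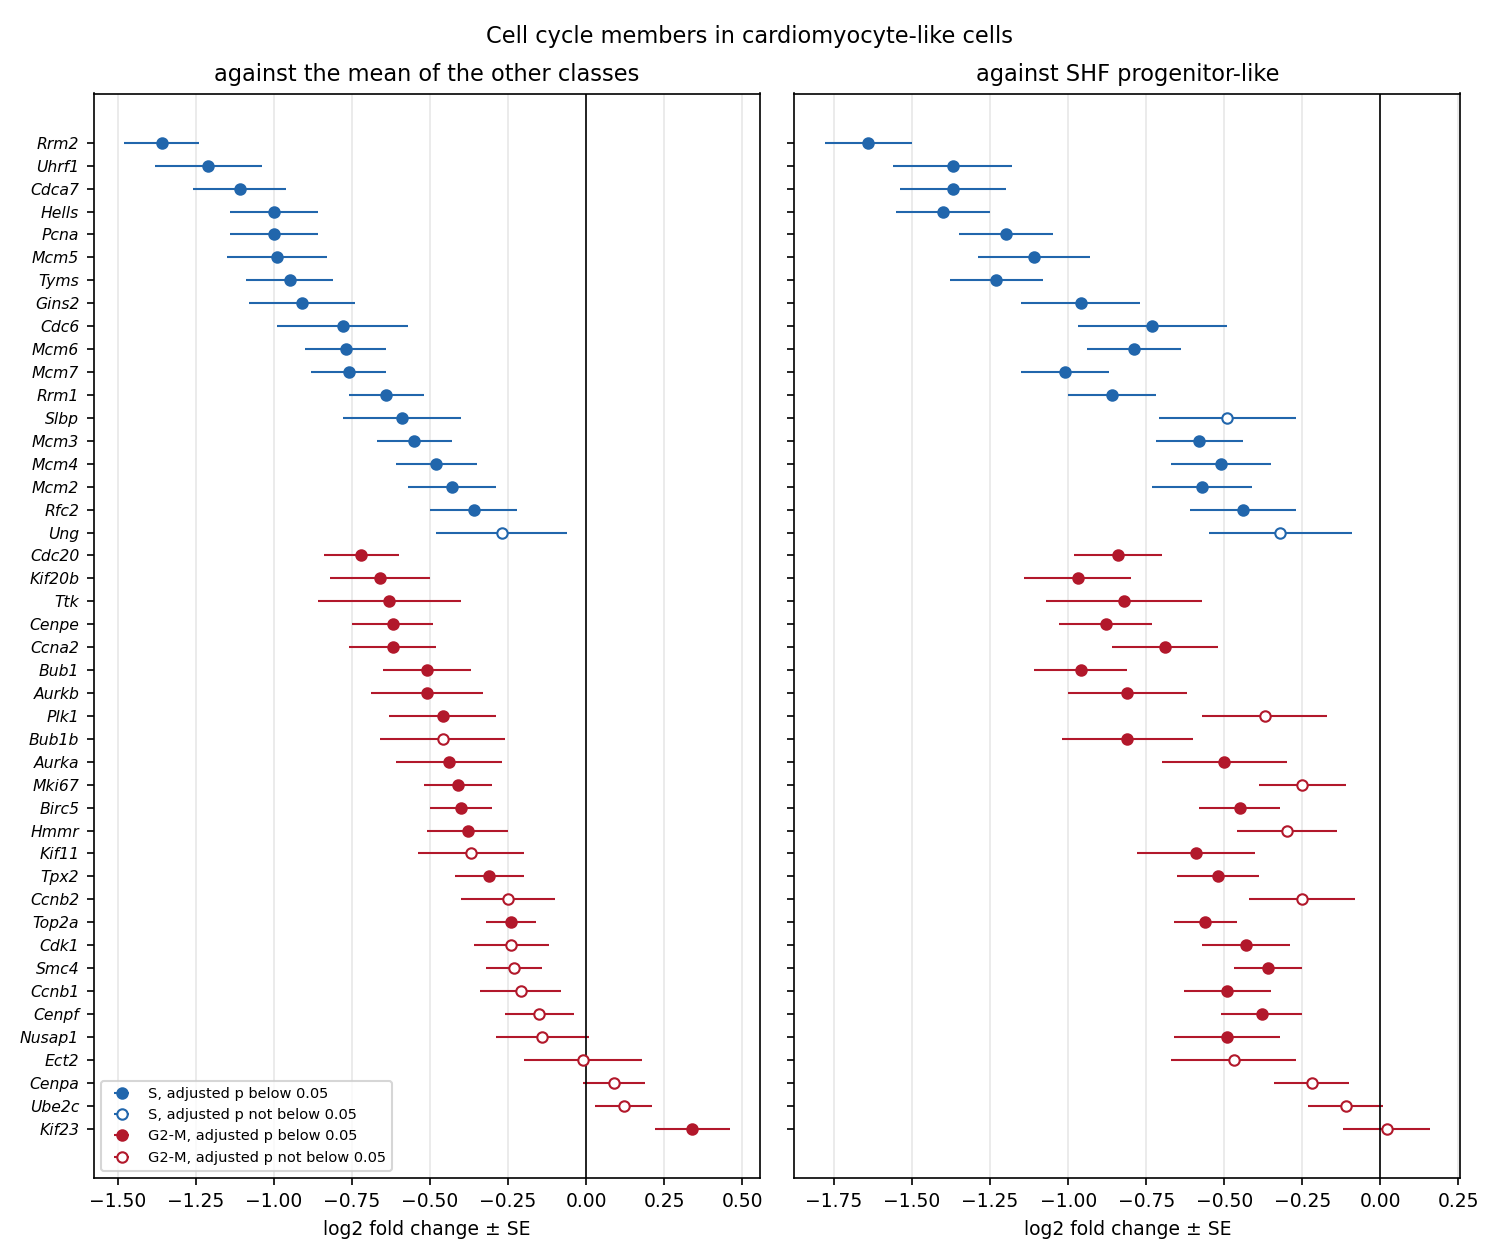
Log2 fold change with its standard error (x axis) of each member in cardiomyocyte-like cells against the mean of the other classes (left) and against SHF progenitor-like cells (right). Filled points have an edgeR adjusted p below 0.05. On the left 17 S members and 14 G2-M members lie below 0 and are filled, and Kif23 is filled above 0.

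The wider lists of cell cycle genes moved alongside the members. Of 38 other S phase genes 27 were called lower in cardiomyocyte-like cells against the mean of the other classes and none (0) higher (median log2 fold change -0.66). For this and the next 2 lists the share over all genes tested was 9.39% called lower and 17.5% called higher. Counts under the alternatives are not given for these lists. The smallest adjusted p were those of the histone chaperone Nasp (-0.73), the dUTPase Dut (-0.87), the Pcna-binding protein gene Pclaf (-0.67) and the DNA ligase Lig1 (-0.75). Of 49 other G2-M genes 16 were called lower, led by Ncapg (-1.02), Incenp (-0.70), Kif15 (-0.80) and Mad2l1 (-0.77). The 2 called higher were Fzr1 (0.68), which activates the anaphase-promoting complex in G1, and the spindle gene Psrc1 (0.57). Psrc1 had 71.6 and 52.8 CPM against 52.2 and 55.6 as the arithmetic mean of the other classes, so on that scale its direction differed between the libraries. Of 18 G1 cyclins, kinases and E2F factors 8 were called lower and none (0) higher. Ccnd1 had 148 and 146 CPM in cardiomyocyte-like cells (-0.86), Ccnd2 192 and 247 (-0.80), Cdk4 804 and 906 (-0.35) and the phosphatase Cdc25a 74.8 and 30.6 (-0.97).

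Of 18 listed inhibitors and exit genes of the cycle 13 could be tested, and 5 were called higher and 1 lower, against 17.5% and 9.39% of all genes. Cdkn1c, an inhibitor of cyclin-dependent kinases, had 693 and 1420 CPM in cardiomyocyte-like cells, a log2 fold change of 1.41 (SE 0.12, edgeR adjusted p = 3.42e-19) against the mean of the class log levels. The arithmetic mean of the other classes was 687 and 623 CPM, so on that scale it was higher in replicate 2 but hardly in replicate 1. Ccng1 (1.47), Cdkn2d (1.33) and Tob1 (1.52) were also called higher, and each was also above the arithmetic mean of the other classes in both libraries. Gadd45g was called higher (0.68) on the mean of class log levels but was below the arithmetic mean in both libraries, with 50.4 and 88.9 CPM against 154 and 99.6, so its direction depends on how the classes are averaged. Gadd45a was called lower (-1.17).

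In neural tube-like cells 13 S members were called higher and none (0) lower, and 10 G2-M members were called higher and 1 lower, against 7.64% of all genes called higher. Without the library as a block 5 S and 0 G2-M members were called higher, and after thinning 3 and 4. Hells rose most among S members, to 593 and 367 CPM (1.13, edgeR adjusted p = 4.14e-14), and the kinetochore gene Cenpf most among G2-M members (0.87). The member called lower was Cdk1 (-0.52, adjusted p = 0.0122), with 193 and 165 CPM against 319 and 454 in endocardial or endothelial-like cells, where it was highest in both libraries. Neuron-like cells, which number 42 and 45, had 6 S members and 12 G2-M members called lower, against 3.52% of all genes, and 4 of each list without the block, 4 and 1 after thinning and 4 and 6 with DESeq2. In the contrast of neuron-like with neural tube-like cells, added after the classes were seen, 12 S and 13 G2-M members were lower, again against 3.52% of all genes, with 6 and 3 without the block and 5 and 1 after thinning. Pcna had 90.4 and 124 CPM in neuron-like and 363 and 441 in neural tube-like cells (-1.94), and Ccnb1 60.2 and 85.8 against 291 and 229 (-1.85).

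In SHF progenitor-like cells 7 S and 14 G2-M members were called higher, against 12.3% of all genes. None (0) were called in either list without the library as a block, 3 and 2 after thinning and 4 and 4 with DESeq2. Their changes were small, with Hells and Bub1 the largest at 0.53 each. Foregut endoderm-like cells had 1 S member (Ung, 0.57) and 12 G2-M members called higher, against 11.8% of all genes, led by Kif23 (0.72), Ect2 (0.72) and Ttk (0.71). Without the block 0 S and 1 G2-M members were called there, and after thinning 0 and 3. Neural crest or glia-like cells had 7 S members and 2 G2-M members called higher, against 9.74%, and Cdca7 (0.73) the largest, and 0 in either list without the block or after thinning. Epicardial-like cells had 1 S and 7 G2-M members called lower, against 2.78%, with Aurka at -0.59, and 0 and 0 without the block, 0 and 1 after thinning and 0 and 4 with DESeq2. Hepatoblast-like cells had 1 S and 6 G2-M members called lower, against 3.87%, with Aurkb at -1.14 (55.9 and 36.6 CPM against 114 and 143 in SHF progenitor-like cells). Those calls numbered 0 and 2 without the block, 0 and 1 after thinning and 0 and 4 with DESeq2. Whether S and G2-M members differ from each other within a class was not tested.

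In erythroid-like cells the direction of most members depends on the scale. The edgeR scale here leaves out the haemoglobin genes that served as markers, though not every haemoglobin gene. On it 8 S members were called higher and 2 lower, and 15 G2-M members higher and none (0) lower. On the scale of all UMIs the erythroid-like level was the lowest of the 12 classes for 7 S and 10 G2-M members. Of all genes tested 24.9% were called higher and 25.3% lower. Members called higher numbered 6 and 10 without the block and 3 and 7 after thinning. Mki67 and Hmmr were highest in erythroid-like cells on either scale. Mki67 (chr7:135689784-135716361) had 807 and 349 CPM there against 413 and 171 in SHF progenitor-like cells (log2 fold change against the mean of the other classes 2.0, SE 0.08, edgeR adjusted p = 1.11e-43). Hmmr, which binds hyaluronan and spindle microtubules (chr11:40701395-40733422), had 355 and 290 CPM against 253 and 161 (1.73, SE 0.10). Hells went the other way, with 73.2 and 27.5 CPM against 372 and 260 (-1.33, adjusted p = 3.29e-13), and Cdca7 fell with it (-0.71).

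**Figure D3:**
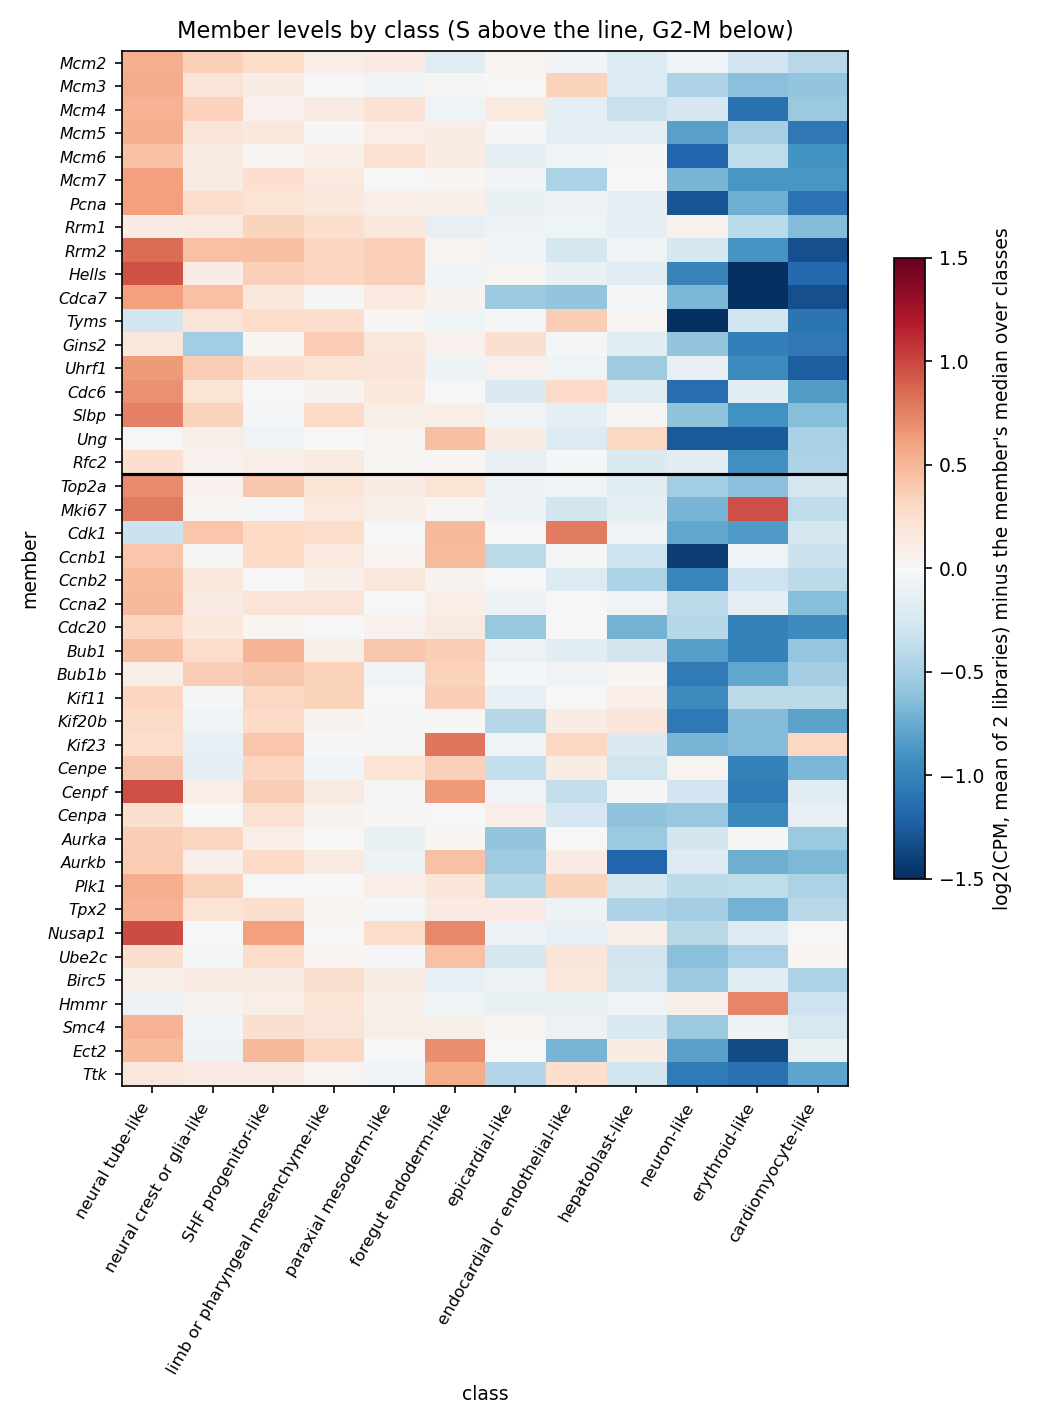
Level of each member (rows, S above the line and G2-M below) in each class (columns, ordered by summed S share), as log2 of the mean CPM of 2 libraries minus the member's median over classes, with colours capped at 1.5 in either direction. The neural tube-like column is mostly above and the 3 rightmost columns mostly below the median, and Mki67 and Hmmr stand out above it in erythroid-like cells.

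Other genes were ranked by how closely their log2 CPM followed the log2 summed shares over the 24 sums of class and library, a description over sums that share libraries. For the G2-M share all 10 closest of 5666 genes belong to the cell cycle lists. The kinesin Kif15 and the centromere protein gene Incenp led (Pearson r = 0.916 each), then Nuf2, Ckap2, Cdca8, Lig1, Usp1, Pola1, Ckap2l and Sgo2a. Of these, Lig1, Usp1 and Pola1 are from the S phase list. The difference between the libraries was not removed, and the G2-M share over all cells was 0.709% and 0.584%. As means over the classes other than cardiomyocyte-like, all 10 genes were also higher in replicate 1 (Kif15 172 and 113 CPM). The ranking therefore mixes differences between classes and between libraries. For the S share 4 of the 10 closest belong to those lists (Chaf1b, Lig1, Rfc3 and Rpa2). The closest were Ranbp1 (r = 0.942), which encodes a Ran-binding protein, and Ran (r = 0.939), the GTPase of nuclear transport. Ppa1, Terf1, Lsm3 and Nup37 complete the 10.

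Cells with several member UMIs were then counted within each class. Each cell was thinned to 1000 UMIs, which left 126 of 158 and 164 of 209 cardiomyocyte-like cells, and a cell was called high at 3 or more UMIs of the summed members. No free RNA was subtracted, so a high cell is a range of UMIs and not a cycling cell. Of the cardiomyocyte-like cells 75 (59.5%, exact 95% binomial interval 50.4 to 68.2) in replicate 1 and 74 (45.1%, 37.4 to 53.1) in replicate 2 were high in G2-M members. In SHF progenitor-like cells these shares were 82.5% (78.3 to 86.1) and 80.3% (75.9 to 84.1), so the intervals did not overlap. Neuron-like cells gave 43.3% (25.5 to 62.6) and 31.4% (16.9 to 49.3), which overlap those of the cardiomyocyte-like cells. Intervals cover counting error only. Before thinning the cardiomyocyte-like shares were 80.4% and 57.4%.

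For S members, 36 cardiomyocyte-like cells (28.6%, 20.9 to 37.3) and 40 (24.4%, 18 to 31.7) were high, against 74.1% and 71.1% of SHF progenitor-like cells. Neuron-like cells had 40% and 34.3%, so the S share of cardiomyocyte-like cells was not above that of neuron-like cells and is not read as expression in S phase. Neuron-like cells are not a clean measure of background, since 26.7% and 14.3% of them were high in both phases. Before thinning, 66.5% and 51.7% of the cardiomyocyte-like cells were high in S members. Cells with UMIs of 3 or more neuron markers, in any class, gave 36.4% and 18.8% for S and 40.9% and 37.5% for G2-M (22 and 16 cells). Free RNA can reach any droplet. Barcodes of 10 to 200 UMIs, used as a rough measure of it, held 0.321% and 0.294% S and 0.723% and 0.627% G2-M UMIs, close to the level of the cells. Their medians were 53 and 182 UMIs, and whether they held free RNA or poor cells was not tested. Haemoglobin made up 3.6% and 2.29% of their UMIs but 0.135% and 0.145% of those of SHF progenitor-like cells.

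The G2-M members were spread over cardiomyocyte-like cells far less evenly than over erythroid-like cells. In cardiomyocyte-like cells the median was 3.0 and 1.5 UMIs per cell, 16.7% and 31.7% of cells had none, and 14.3% and 13.4% had 10 or more, with a variance of 4.78 and 6.22 times the mean. Erythroid-like cells had means close to those (4.94 and 3.95 UMIs, against 4.98 and 3.87), yet 2.72% and 4.79% of cells had none, 4.08% and 3.42% had 10 or more, and the variance was 1.42 and 1.69 times the mean. Thinning includes haemoglobin, so fewer of the 1000 UMIs of an erythroid-like cell come from other genes. Uneven spread was not limited to cardiomyocyte-like cells. The variance was 5.91 and 3.34 times the mean in hepatoblast-like cells, above the cardiomyocyte-like value in replicate 1. It was 4.0 and 4.38 times the mean in foregut endoderm-like and 3.42 and 3.34 times in SHF progenitor-like cells. Neuron-like cells were the most uneven, with 36.7% and 25.7% at none, 20% and 11.4% (6 and 4 cells) at 10 or more, and variances of 14.1 and 10.2 times the mean. Those 6 and 4 cells had medians of 3.0 and 2.5 neuron marker UMIs, against 6.0 and 4.0 in the other neuron-like cells.

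**Figure D4:**
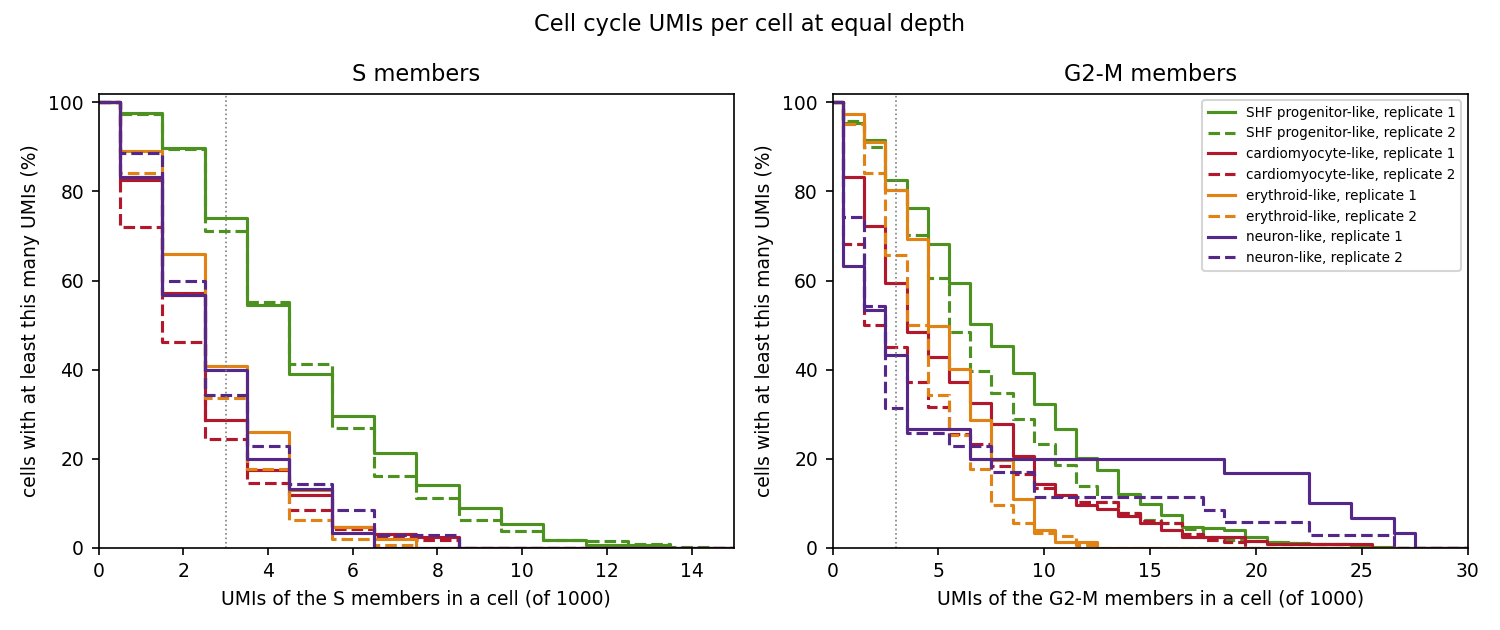
Percent of cells (y axis) with at least the number of S (left) or G2-M (right) member UMIs on the x axis, after thinning to 1000 UMIs, in 4 classes. Solid lines are replicate 1, broken lines replicate 2 and the dotted line marks 3 UMIs. For G2-M the erythroid-like lines end at 12 UMIs, while cardiomyocyte-like lines start lower and run on to 25 and 19.

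By both thresholds, 39 cardiomyocyte-like cells (31%) in replicate 1 and 72 (43.9%) in replicate 2 were high for neither phase, against 2.62% and 5.26% of SHF progenitor-like cells and 43.3% and 48.6% of neuron-like cells. Cells high in G2-M only made up 40.5% and 31.7% of cardiomyocyte-like cells, and cells high in S only 9.52% and 11%. In SHF progenitor-like cells the most frequent group was high in both, with 59.2% and 56.6%. Near the threshold, 16 and 8 cardiomyocyte-like cells had 2 G2-M UMIs and 14 and 13 had 3.

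Within the cardiomyocyte-like class, fewer of the cells richest in sarcomere mRNA were high in G2-M members. Cells were divided into 3 equal ranks by UMIs of the 11 cardiomyocyte markers. In replicate 1, 76.2% (exact 95% interval 60.5 to 87.9) of the lowest rank (2 to 13 marker UMIs), 71.4% of the middle and 31% (17.6 to 47.1) of the highest rank (48 to 132) were high in G2-M members. In replicate 2 these shares were 65.5% (51.4 to 77.8), 38.2% and 31.5% (19.5 to 45.6). Relative to the UMIs outside the markers and haemoglobin, G2-M members made up 0.617%, 0.663% and 0.256% in replicate 1 and 0.58%, 0.385% and 0.238% in replicate 2. The level in the highest rank was thus below that in the lowest with marker UMIs left out of the total. High cells had medians of 17 and 24 marker UMIs and the others 53 and 49.5. Of the high cells 30 and 44 had at least 20 marker UMIs, while the medians of all other classes lay between 0.0 and 1.0. In epicardial-like cells the 90th percentile was 4.0 and 5.9, within the range of the lowest rank (2 to 13 and 2 to 22).

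S members followed less clearly, with 40.5%, 28.6% and 16.7% of cells high from the lowest to the highest rank in replicate 1 and 30.9%, 20% and 22.2% in replicate 2. Doublet scores moved with the G2-M level, with medians of 0.0943 in high cells and 0.0706 in the others in replicate 1 and 0.0994 and 0.0757 in replicate 2, and their part in the result was not tested. Markers of other types were scarce in both sets of cells. SHF progenitor markers had medians of 0.5 to 1.0 UMI, and endothelial, epicardial and mesenchyme markers medians of 0.0. Myl2, a ventricular myosin light chain, was detected in 8 and 13 cardiomyocyte-like cells, too few to compare with the others.

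Across single cells the members kept to their phases. Over 4001 thinned cells, centred within class and library, all 26 G2-M members correlated more with the sum of the other G2-M members (median r = 0.21) than with the S members (median -0.08). The strongest were Ube2c (0.40), Cenpf (0.35) and Top2a (0.33). Of 18 S members 17 leaned towards the other S members, but weakly (median 0.08 against -0.07). Rrm1 had r = 0.03 with either. The S sum and the G2-M sum had r = -0.23. These values are descriptions of sparse counts, and the cells share 2 libraries.

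The libraries differed in the members in step with mRNA length. Over all cells the 18 S members summed to 0.36% of UMIs in both libraries, and the 26 G2-M members to 0.709% and 0.584%. Mki67 had 469 CPM in replicate 1 and 175 in replicate 2, a ratio of 2.68, Cenpf had a ratio of 2.24 and Cenpe of 2.15. These have mRNAs of 10061, 11130 and 7910 bases, the longest of the members. Cdc20 and Cdk1, with 1793 and 4375 bases, had ratios of 0.721 and 0.735. Of the 11 members with the longest mRNAs 9 were higher in replicate 1 (median log2 ratio 0.68), and of the 11 with the shortest 2 (median -0.18). Across the 44 members the log2 ratio and log2 length had r = 0.706, with 0.226 for S and 0.833 for G2-M members, and 3327 other genes with at least 50 CPM had r = 0.554. The class comparisons above are made within libraries, while the SD of a summed G2-M share over 2 libraries includes this difference. What lies behind it was not tested.

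**Figure D5:**
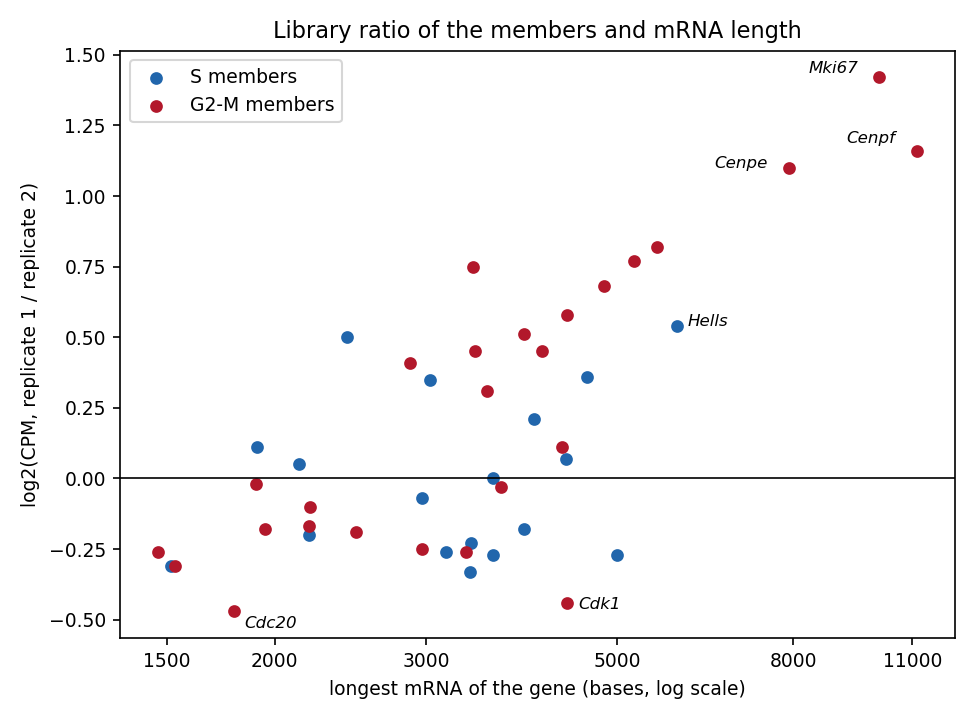
Log2 ratio of CPM between replicate 1 and replicate 2 (y axis) against the longest mRNA of each member in bases (x axis, log scale). Points above 0 are higher in replicate 1. The longest G2-M mRNAs (Mki67, Cenpf, Cenpe) are highest, and Cdc20 and Cdk1 lowest.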

How the data were processed

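The deposited tables hold UMI counts (whole numbers, a gene by a cell barcode) that show no sign of scaling by the authors. Drop-seq is named in the labels' protocols, and mm10 and Scanpy in the submitters' processing notes. How reads were aligned and counted, and by what rule barcodes were chosen, is not given in the sources used here. Before filtering, replicate 1 had 5000 barcodes with 11958912 UMIs, and replicate 2 had 7497 with 14131384.

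A cell needed 400 or more genes and no more than 10% mitochondrial UMIs (4038 and 4934 passed). Scrublet's automatic threshold marked 0 and 1 cells, so a cut was set in each library at the highest 5% of scores. Cells above the cut were removed (156 and 217), and cells with a score equal to it were kept. Clustering (Scanpy 1.11.5, Leiden resolution 1, 2000 variable genes, 30 components, 20 neighbours) used the markers and a random 50% of the other genes (25189 in all). Those other genes excluded listed cell cycle, mitochondrial, ribosomal, haemoglobin, Xist and Y-linked genes. Haemoglobin genes among the erythroid markers were used. A cluster of at least 20 cells per library was named from at least 3 raised markers (2-fold, 5% of cells) that led the next type by 2. A smaller lead sufficed where its 10 leading genes held at least 2 more markers of that type than of any other. Paraxial mesoderm-like cells were named in this way, with 4 raised markers against 3. Details of the rule were set after the clusters were seen. A cluster led by Dlx genes and Hoxa9 stayed unnamed.

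Counts summed per class and library (24 sums) were tested with edgeR 4.0.16 (quasi-likelihood, two-sided, TMM, filterByExpr, library as a block, 11 residual degrees of freedom, Benjamini-Hochberg over held-out genes). The block is used because the classes of a library share embryos and day. The deviations of the library from the class means correlated over 66 pairs of classes with r from 0.158 to 0.686. Alternatives were DESeq2 1.42.0, no block, no filter on low counts, thinned cells, single libraries, doublets kept, stricter cell filters, other Leiden resolutions and another random draw of clustering genes. For counts of cells high in members, each cell was thinned to 1000 UMIs. The test was tried on data simulated from these sums. Coordinates and mRNA lengths are from GENCODE M21 on GRCm38 (mm10). Of the members, 8 overlap another gene on the same strand and 14 on the other strand. A symbol with several identifiers stands for the one with the most UMIs.

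All members could be named. Of the other lists, the 4 genes with the smallest adjusted p in cardiomyocyte-like cells and any against their list's direction were named, and the 10 genes most like each summed share. The remaining inhibitors called are named because their count is small. The members and lists were chosen with earlier results of these data known.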

Additional observations from a re-analysis of the deposited data

Results flagged for a closer look

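Barcodes too small to count as cells, which entered no class comparison, held member UMIs at levels near those of the cells. In barcodes of 10 to 200 UMIs the S members made up 0.321% of UMIs in replicate 1 (28 UMIs, exact 95% interval 0.214 to 0.464) and 0.294% in replicate 2 (163 UMIs, 0.25 to 0.342). The G2-M members made up 0.723% (63 UMIs, 0.556 to 0.924) and 0.627% (348 UMIs, 0.563 to 0.696). The levels over all kept cells were 0.36% and 0.36% for S and 0.709% and 0.584% for G2-M.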

How the results depend on the processing

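Every member called in cardiomyocyte-like cells against the mean of the other classes kept its direction under the 12 alternatives, single libraries included. Of the 32 calls 12 passed without the replicate block, 14 after thinning to 1000 UMIs, 25 with DESeq2 and 26 to 31 under the others. S members called lower (17) were 11 after thinning and 11 without the replicate block. G2-M members called lower (14) were 4 after thinning, 1 without the replicate block and 8 with DESeq2. Against SHF progenitor-like cells the 18 G2-M members became 8 after thinning and 1 without the replicate block. Thinning leaves fewer cells and UMIs, and the cause of the other changes was not tested. Single libraries, which allow no test, gave medians of -0.60 and -0.89 for S and -0.26 and -0.33 for G2-M.

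For the other classes the counts moved more. Over the alternatives with a test, S and G2-M members called higher numbered 3 to 13 (reported 13) and 0 to 17 (10) in neural tube-like, 0 to 9 (7) and 0 to 18 (14) in SHF progenitor-like, 3 to 8 (8) and 7 to 16 (15) in erythroid-like, 0 to 3 (1) and 1 to 12 (12) in foregut endoderm-like and 0 to 7 (7) and 0 to 4 (2) in neural crest or glia-like cells. Those called lower numbered 4 to 10 (6) and 1 to 14 (12) in neuron-like, 0 to 6 (1) and 0 to 5 (7) in epicardial-like and 0 to 1 (1) and 1 to 7 (6) in hepatoblast-like cells, and 5 to 12 (12) and 1 to 16 (13) for neuron-like against neural tube-like.

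Under each cell setting the cells were clustered and named anew. At most 5% mitochondrial UMIs gave a cardiomyocyte-like class of 52 and 96 cells. Its summed share was 0.143% for S (reported 0.189) and 0.325% for G2-M (0.494). In it 19.3% of cells were high in S and 35.1% in G2-M members. The reported class of 158 and 209 cells had medians of 1.22% and 1.15% mitochondrial UMIs, so the membership of the class changed beyond the filter. What the lower shares come from was not tested. Cells high in S members (26.5% over 2 libraries) became 34.4% with doublets kept, 30.9% under the stricter gene minimum, 31.5% at resolution 1.6, 51.7% at 2 or more UMIs, 10.2% at 5 or more and 17.9% after thinning to 700 UMIs. Cells high in G2-M members (52.3%) became 61.1% at 2 or more UMIs, 37.3% at 5 or more and 42.7% after thinning to 700 UMIs. The S share in cardiomyocyte-like cells ranged from 0.17 to 0.209 over single libraries and the G2-M share from 0.432 to 0.557. Those of neural tube-like cells ranged from 0.502 to 0.521 and from 0.687 to 0.994. Neural tube-like cells ranked highest for S and G2-M under all 7 cell settings, and cardiomyocyte-like cells ranked lowest for S in 5, with erythroid-like cells lowest when doublets were kept and at resolution 1.6. Epicardial-like, neural crest or glia-like and paraxial mesoderm-like classes did not form under 1, 3 and 2 settings.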
